A study of Homo sapiens with 20 samples.

Results

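The 10 genes described here are regulators and products of bone-forming osteoblasts: RUNX2, SP7, ALPL, SPP1, IBSP, SPARC, BGLAP, MGP, TNFRSF11B and DKK1. They were taken by their gene symbols from the 20314 genes of the deposited count table, and each of the 10 symbols had a row. The libraries came from U2-OS, an established human osteosarcoma cell line, grown in DMEM with fetal calf serum. The study compared the early and the late phase of the response to DNA double-strand breaks and the loss of the NF-κB inhibitor IκBα without damage, in 4 groups of 5 replicates. Untreated cells were the control. Irradiation with 20 Gy was followed by harvest after 1.5 h (90 minutes in the labels) or 7 days (post-IR), and the last group carried an shRNA against NFKBIA, the gene of IκBα, and was not irradiated. According to the methods, shRNA lines were made by lentiviral transduction, clonally selected with puromycin and in general treated with doxycycline. The controls named there for such lines expressed a scrambled shRNA and received doxycycline too. For the untreated libraries no vector, scrambled shRNA or doxycycline is given in the labels, so against these libraries the knockdown and the steps of making the line cannot be told apart. All libraries are of 1 cell line; the study describes the untreated and irradiated libraries as biological replicates, and p values measure the spread between them.

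RUNX2 is the transcription factor that commits mesenchymal cells to the bone lineage, and SP7 (osterix) acts after it. Committed cells lay down a collagen matrix with SPARC (osteonectin), then raise alkaline phosphatase (ALPL), which removes the mineralization inhibitor pyrophosphate, and the mineral-binding proteins osteopontin (SPP1), bone sialoprotein (IBSP) and osteocalcin (BGLAP). MGP keeps soft tissue free of mineral, TNFRSF11B (osteoprotegerin) captures the osteoclast factor RANKL, and DKK1 blocks the Wnt co-receptors LRP5 and LRP6.

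Promoter sequences of 7 of the 10 genes were found in RefSeq (GRCh38.p14), and the 250 bases before the annotated start were searched on both strands for the core site of RUNX factors, TGTGGT. This core lay in the promoters of RUNX2 (the first of its 2 start sites), SPP1 and BGLAP, and in 10.98% of all 35116 promoters of the same length. The sequences with the core are shown because RUNX2 is known to bind its own promoter and those of SPP1 and BGLAP, and SPARC is shown as the most abundant member. Capitals mark the core or its reverse complement, ACCACA. The RUNX2 sequence (chr6:45328080-45328329, + strand) held it 191 and 87 bases before the start, the SPP1 sequence (chr4:87975464-87975713, + strand) 142 bases before and the BGLAP sequence (chr1:156241934-156242183, + strand) 163 bases before. The SPARC sequence (chr5:151686916-151687165, - strand) had no match in this window.
RUNX2: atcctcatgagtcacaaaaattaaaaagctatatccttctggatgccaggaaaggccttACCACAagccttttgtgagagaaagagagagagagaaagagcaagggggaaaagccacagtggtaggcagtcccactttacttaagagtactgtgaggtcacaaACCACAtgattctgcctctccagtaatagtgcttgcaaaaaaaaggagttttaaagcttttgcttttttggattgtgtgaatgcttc
SPP1: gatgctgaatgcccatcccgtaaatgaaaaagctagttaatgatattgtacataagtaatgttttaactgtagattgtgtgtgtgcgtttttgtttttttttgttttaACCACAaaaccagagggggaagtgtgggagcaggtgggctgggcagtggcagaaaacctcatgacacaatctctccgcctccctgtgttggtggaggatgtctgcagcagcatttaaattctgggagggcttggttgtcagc
BGLAP: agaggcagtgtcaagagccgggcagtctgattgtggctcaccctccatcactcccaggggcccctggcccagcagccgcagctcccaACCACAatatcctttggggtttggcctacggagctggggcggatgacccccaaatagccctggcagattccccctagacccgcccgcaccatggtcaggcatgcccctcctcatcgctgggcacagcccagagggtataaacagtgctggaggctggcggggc
SPARC: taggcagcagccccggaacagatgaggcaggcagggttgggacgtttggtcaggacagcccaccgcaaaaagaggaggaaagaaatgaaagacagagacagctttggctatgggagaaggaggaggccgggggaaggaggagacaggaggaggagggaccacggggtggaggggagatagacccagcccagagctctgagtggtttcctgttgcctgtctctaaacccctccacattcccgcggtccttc
The AP-1 site TGANTCA, found in 6.57% of all promoters, was in the first RUNX2 window alone among the members' windows. The TATA box TATAAA, searched on the gene's strand and found in 6.80% of promoters, was in those of BGLAP and DKK1. The κB consensus, in 9.96% of promoters, had no match in the members' windows. A match is a string of letters and no evidence of binding.

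Between 22535700 and 40391000 reads were counted on genes in a library. Levels are given in CPM (counts-per-million) after scaling of library sizes by TMM, and 3 counts in a library correspond to 0.0751 to 0.143 CPM. NFKBIA itself, the target of the shRNA, stood at 28.6, 23.5, 27.4, 35.0 and 42.0 CPM in untreated replicates 1 to 5 and at 13.0, 11.2, 12.1, 12.0 and 12.4 CPM in the knockdown. Its level was 88.3, 76.3, 80.0, 78.8 and 87.0 CPM at 1.5 h and 30.4, 28.4, 32.4, 32.0 and 30.5 CPM at 7 days post-IR. The knockdown libraries all lay below the other groups, as their label says. Untreated replicate 5 stood apart from its group, with the fewest reads, a median correlation of 0.978 with its group against 0.989 or more in the other libraries, and another sequencing lane (3) than untreated replicates 1 to 4 (lane 2). Lane 3 held 1.5 h replicates 1 to 3 as well, lane 4 held 1.5 h replicates 4 and 5 and 7 days replicates 1 and 2, lane 5 held the other 7 days replicates with knockdown replicate 1, and lane 6 the rest.

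In untreated cells the members spanned the range from the most abundant transcripts to none. Per kilobase of the gene model's width in the deposited table, SPARC reached 442 CPM and rank 27 of the 20314 genes. TNFRSF11B followed with 32.3 CPM per kilobase (rank 1616), RUNX2 with 14.2 (rank 4030), ALPL with 8.91 (rank 5927) and SPP1 with 5.26 (rank 8069). The remaining members were lower, with 0.964 CPM per kilobase for BGLAP (rank 12040), 0.0518 for MGP and 0.0268 for DKK1. SP7 and IBSP, which define the later osteoblast, were near 0 in all 20 libraries, with at most 3 and 1 counts in a library. Among the members RUNX2, SPARC, ALPL, SPP1 and TNFRSF11B were thus expressed in these cells, whereas SP7 and IBSP were at or near 0. Outside the members the collagen gene COL1A1 stood at 1974 CPM in untreated cells, but COL1A2 at 0.411 CPM, and DLX5 had 0 counts. The chondrocyte factor SOX9 reached 50.3 CPM per kilobase, above RUNX2.

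**Figure D1:**
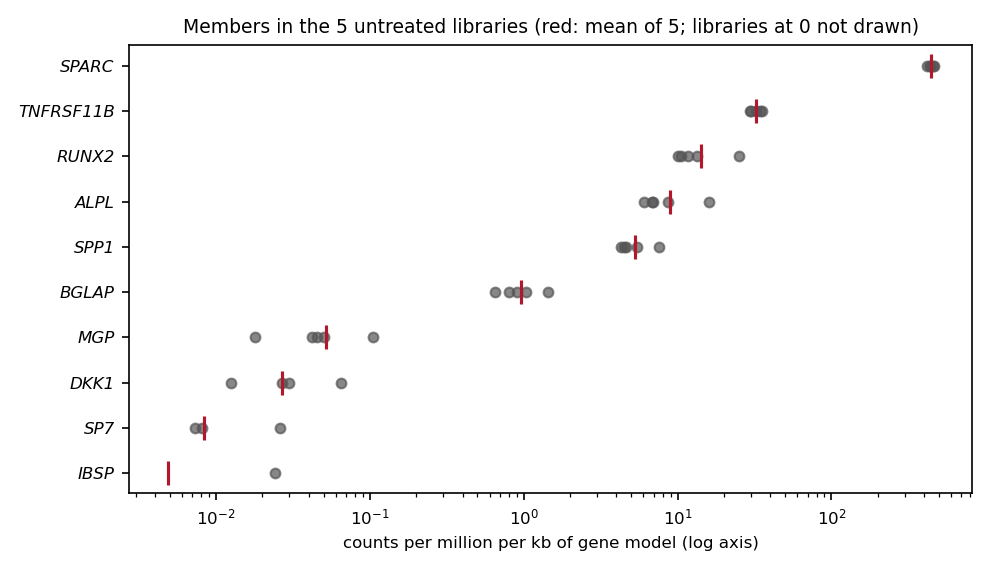
Level of each member in the 5 untreated libraries (points) with their mean (red bar), in CPM per kilobase on a log axis, with libraries at 0 not drawn. SPARC, at 442, lies far to the right of all other members, and SP7 and IBSP lie at the left end.

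Of the 10 members, 7 had enough counts to be tested, and DKK1 passed the filter on low counts only through the 7 days libraries. SP7, IBSP and MGP did not pass this filter. A gene was called changed when its log2 fold change exceeded 0.5 in either direction and its Benjamini-Hochberg adjusted p was under 0.05 in edgeR's quasi-likelihood test across 14992 genes. At 1.5 h post-IR 2 of the 7 tested members were called, RUNX2 and TNFRSF11B, both lower, where 3.66% of all genes tested were called (2.08% higher and 1.57% lower). At 7 days post-IR SPP1 and ALPL were called higher and SPARC lower, where 31.1% of all genes were called (16.7% higher and 14.4% lower). DKK1 was called higher as well, but it is not counted here, since it passed the filter only through these libraries. Without all genes that did so, 29.9% of 14650 genes were called at 7 days. In the knockdown ALPL and TNFRSF11B were called, both lower, where 12.7% of all genes were called (5.18% higher and 7.53% lower). The groups did not overlap for 1, 3 (DKK1 among them) and 2 members in these comparisons, beside 12.3%, 44.8% and 24.1% of all genes tested. These 3 comparisons share the untreated libraries.

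**Figure D2:**
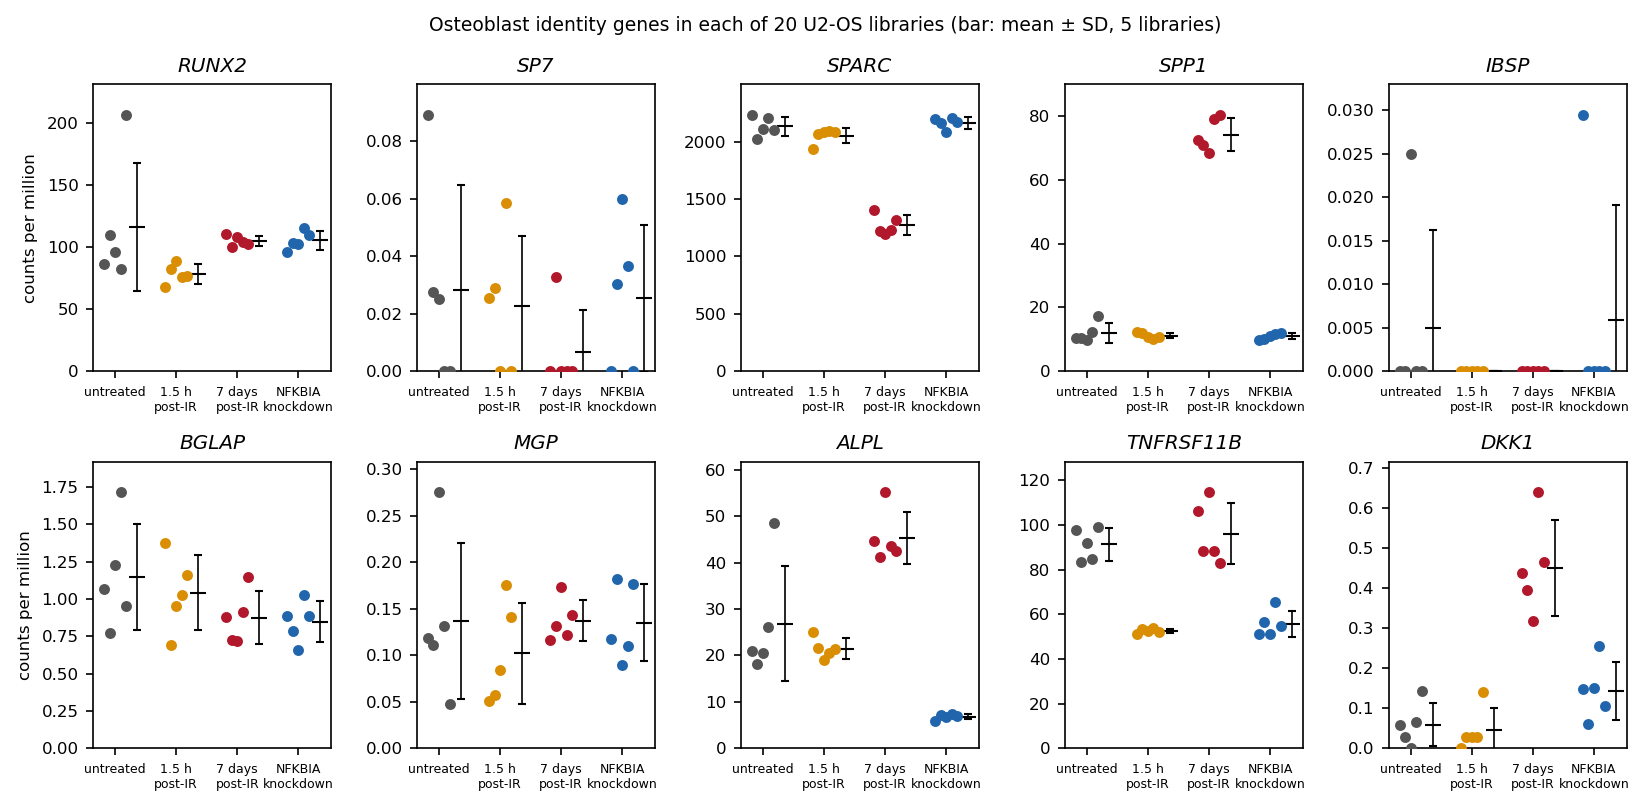
CPM of the 10 members in each library (points, replicates 1 to 5 from left to right) with the mean and SD of 5 libraries per group (black), on a separate linear axis from 0 for each gene, so that SD bars are cut at 0. SPP1 at 7 days and ALPL in the knockdown stand clear of all other groups, and the top untreated point of RUNX2 and ALPL is replicate 5.

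**Figure D3:**
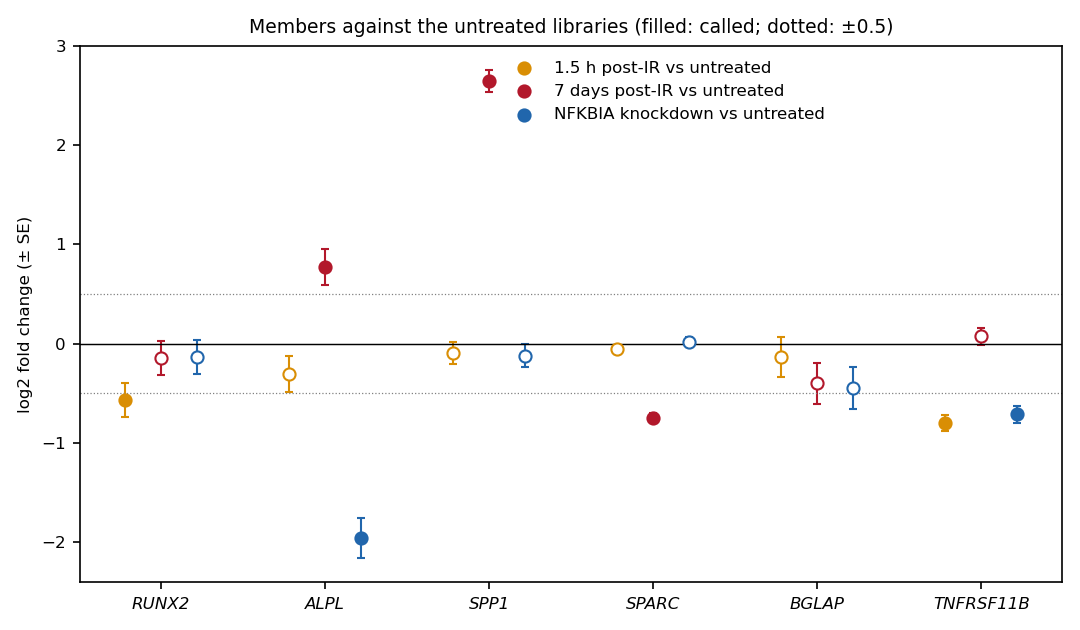
Log2 fold change (± SE) of 6 tested members (DKK1, which passed the filter only through the 7 days libraries, is not drawn) against the untreated libraries at 1.5 h post-IR, at 7 days post-IR and in the NFKBIA knockdown; filled points were called, and dotted lines mark ±0.5. SPP1 (2.64) had the highest value of the 6 at 7 days, and ALPL fell by 1.96 in the knockdown.

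RUNX2, the lineage regulator, was expressed in all libraries. Its level was 86.0, 109.7, 96.0, 82.5 and 206 CPM in untreated replicates 1 to 5 and 67.6, 82.7, 89.1, 75.8 and 77.1 CPM at 1.5 h. At 7 days it was 110.2, 100.4, 108, 104 and 103 CPM, and in the knockdown 96.2, 103, 102, 116 and 109.7 CPM. Untreated replicate 5 stood far above all other libraries, and the 1.5 h libraries overlapped the untreated ones but lay below all of 7 days and the knockdown. RUNX2 was called lower at 1.5 h (log2 fold change -0.56, SE 0.17, edgeR adjusted p = 0.0235). Without untreated replicate 5 the log2 fold change was -0.26 (edgeR adjusted p = 0.0123), under the fold threshold, and within lane 3, where replicate 5 was the only untreated library, it was -1.38. A fit of only these 2 groups gave an edgeR adjusted p of 0.181. The call was also lost without 1.5 h replicate 1 or 4, and it was kept in 16 of 20 alternatives. Against untreated, RUNX2 differed by -0.14 at 7 days (95% interval -0.49 to 0.22) and by -0.14 in the knockdown (-0.49 to 0.22), and both differences turned to 0.15 without untreated replicate 5. With the lane as a factor, which rests on that library, they were -0.91 (edgeR adjusted p = 0.000414) and -1.04 (edgeR adjusted p = 0.00239) and both were called. From 1.5 h to 7 days RUNX2 was higher by 0.42 (edgeR adjusted p = 0.0378), below the fold threshold, in groups that did not overlap, and by 0.45 within lane 4.

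SP7, the zinc-finger factor that follows RUNX2, had 0 to 3 counts in each untreated library, 0 to 2 at 1.5 h, 0 or 1 at 7 days and 0 to 2 in the knockdown. In a fit with no filter on low counts its edgeR adjusted p against untreated was 0.836 at 1.5 h, 0.170 at 7 days and 0.896 in the knockdown. So few counts limit what a test can show. Reads of RUNX2 can include those of SUPT3H, which overlaps it on the other strand, but SUPT3H stood at only 0.348 ± 0.148 CPM (SD, n = 5) in untreated cells. Whether the counting used strand is not given in the sources used here.

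ALPL, the membrane phosphatase of mineralizing cells, took the opposite course in the late phase and in the knockdown. Its level was 21.0, 18.1, 20.6, 26.2 and 48.4 CPM in untreated cells and 25.0, 21.5, 19.0, 20.5 and 21.4 CPM at 1.5 h. It was 44.6, 41.2, 55.1, 43.5 and 42.5 CPM at 7 days and 5.80, 7.19, 6.85, 7.44 and 6.94 CPM in the knockdown. All knockdown libraries lay below all others, and all 7 days libraries lay above the untreated ones except replicate 5. In the knockdown ALPL fell from 26.9 ± 12.4 to 6.84 ± 0.628 CPM (SD, n = 5), a log2 fold change of -1.96 (SE 0.20, edgeR adjusted p = 1.47e-07), or -1.67 without untreated replicate 5. Over the 19 alternative settings this difference lay between -3.13 and -1.67, and the call was kept in all 19. At 7 days it rose to 45.4 ± 5.58 CPM (log2 fold change 0.77, SE 0.18, edgeR adjusted p = 0.000909), or by 1.06 without untreated replicate 5. With the lane as a factor, in a fit that ties untreated to irradiated libraries through replicate 5 alone, the difference at 7 days was -0.11 (edgeR adjusted p = 0.694). Against 1.5 h, which shares lane 4 with it, ALPL was higher at 7 days by 1.08 (edgeR adjusted p = 3.00e-05) and by 1.02 within the lane. At 1.5 h ALPL differed from untreated by -0.30 (95% interval -0.69 to 0.08), by -0.00 without untreated replicate 5, and by -1.16 within lane 3. Within lane 3 replicate 5 was the only untreated library, so that value has no untreated spread behind it. With the lane as a factor ALPL was called lower at 1.5 h (-1.15, edgeR adjusted p = 1.71e-05), in a fit that rests on the same library.

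SPARC, the collagen-binding glycoprotein, fell at 7 days and was not called at 1.5 h or in the knockdown. Its level was 2232, 2028, 2114, 2207 and 2103 CPM in untreated cells and 1938, 2069, 2087, 2092 and 2081 CPM at 1.5 h. It was 1406, 1222, 1197, 1233 and 1315 CPM at 7 days and 2199, 2164, 2081, 2207 and 2174 CPM in the knockdown. All 7 days libraries lay below all others. From 2137 ± 82.8 CPM SPARC fell to 1275 ± 85.8 CPM (SD, n = 5), a log2 fold change of -0.75 (SE 0.05, edgeR adjusted p = 2.32e-11). Its difference from untreated was -0.06 at 1.5 h (95% interval -0.16 to 0.04) and 0.02 in the knockdown (-0.08 to 0.12). Without untreated replicate 5 the 3 log2 fold changes were -0.07 at 1.5 h, -0.77 at 7 days and -0.00 in the knockdown. SPARC at 7 days was also lower than at 1.5 h (-0.69, and -0.68 within lane 4) and than in the knockdown (-0.76, and -0.82 within lane 5). Its share of all counts was between 0.121% and 0.226% of a library.

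SPP1, whose product osteopontin binds integrins and CD44, moved in the other direction. Its level was 10.5, 10.3, 9.76, 12.4 and 17.2 CPM in untreated cells, 12.2, 11.9, 10.7, 10.1 and 10.8 CPM at 1.5 h, and 9.89, 10.2, 11.1, 11.5 and 12.0 CPM in the knockdown. At 7 days it was 72.5, 71.0, 68.4, 79.3 and 80.4 CPM, and the lowest of these lay above every library of the other groups. The mean rose from 12.0 ± 3.07 to 74.3 ± 5.28 CPM (SD, n = 5), a log2 fold change of 2.64 (SE 0.11, edgeR adjusted p = 3.55e-14). An exact two-sided permutation test gave p = 0.00794, the smallest possible with 5 libraries against 5. Within lane 4 SPP1 was 2.77 higher than at 1.5 h, and within lane 5 it was 2.94 higher than in the knockdown, both on the log2 scale. SPP1 differed from untreated by -0.09 at 1.5 h (95% interval -0.33 to 0.15) and by -0.12 in the knockdown (-0.36 to 0.12), and by -0.58 within lane 3 at 1.5 h. Without untreated replicate 5 these differences turned to 0.05 and 0.01, neither called, and the rise at 7 days was 2.78. With the lane as a factor, untreated cells are tied to the other groups through replicate 5 alone, the highest untreated library for SPP1. In that fit the difference was -0.57 at 1.5 h (edgeR adjusted p = 0.00151). In the knockdown it was -0.73 (edgeR adjusted p = 0.0127), and both were called. Per kilobase SPP1 thus passed RUNX2 at 7 days, with 32.5 against 12.8 CPM, where it had been below RUNX2 in untreated cells.

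The genes beside SPP1 on chromosome 4 encode related acidic proteins of bone and tooth. In GENCODE 29 the order is SPARCL1, DSPP, DMP1, IBSP, MEPE and SPP1. IBSP had 1 count in the 5 untreated libraries together, 0 at 1.5 h, 0 at 7 days and 1 in the knockdown. DSPP, DMP1 and MEPE had 2, 1 and 2 counts in all untreated libraries together and 16, 16 and 18 at 7 days, with no more than 7 in any library, and were not tested. SPARCL1, a relative of SPARC, rose from at most 2 counts in an untreated library to 1.06 ± 0.181 CPM at 7 days (SD, n = 5), at least 10.9-fold higher when the untreated libraries are set to 3 counts each.

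BGLAP, the vitamin K-dependent protein osteocalcin, was low in all groups. It had 20 to 52 counts in an untreated library, 24 to 54 at 1.5 h, 22 to 32 at 7 days and 22 to 30 in the knockdown. The means were 1.15 ± 0.357, 1.04 ± 0.252, 0.876 ± 0.174 and 0.848 ± 0.136 CPM (SD, n = 5), and all groups overlapped. Log2 fold changes against untreated were -0.13 (95% interval -0.55 to 0.28) at 1.5 h, -0.40 (-0.83 to 0.03) at 7 days and -0.45 (-0.88 to -0.01, edgeR adjusted p = 0.0972) in the knockdown, none of them called. Without untreated replicate 2 the last 2 became -0.53 and -0.57 and were called, and without untreated replicate 5 the 3 were -0.18, -0.46 and -0.51 and none was called (edgeR adjusted p = 0.0616 in the knockdown). BGLAP lies within the read-through gene PMF1-BGLAP on the same strand, which stood at 17.96 ± 2.08 CPM in untreated cells and 10.2 ± 0.864 CPM at 7 days, and it overlaps PAQR6 on the other strand, so its value is uncertain. MGP, the matrix Gla protein, had 1 to 11 counts in an untreated library and 2 to 6 at 1.5 h. It had 4 to 6 at 7 days and 3 to 6 in the knockdown, and the groups overlapped. MGP did not pass the filter on low counts. With no filter its edgeR adjusted p against untreated was 0.436 at 1.5 h, 0.784 at 7 days and 0.840 in the knockdown. The gene overlaps C12orf60 on the other strand.

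TNFRSF11B, the decoy receptor for RANKL, was lower in the early phase and in the knockdown. Its level was 97.7, 83.3, 92.0, 84.6 and 99.3 CPM in untreated cells and 51.2, 53.3, 52.6, 53.8 and 52.1 CPM at 1.5 h. It was 106, 88.5, 115, 88.3 and 83.1 CPM at 7 days and 51.1, 56.4, 51.2, 65.5 and 54.9 CPM in the knockdown. The 1.5 h and knockdown libraries lay below all libraries of the other groups. The log2 fold change was -0.80 at 1.5 h (SE 0.08, edgeR adjusted p = 5.92e-07), -0.93 within lane 3, and -0.71 in the knockdown (SE 0.08, edgeR adjusted p = 8.85e-07). At 7 days TNFRSF11B differed from untreated by 0.07 (95% interval -0.10 to 0.25). Without untreated replicate 5 the values were -0.77 at 1.5 h, -0.70 in the knockdown and 0.08 at 7 days. It was higher than at 1.5 h by 0.87 (edgeR adjusted p = 1.17e-08, and 0.87 within lane 4) and than in the knockdown by 0.79 (edgeR adjusted p = 6.33e-08, and 0.90 within lane 5).

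DKK1, the secreted Wnt antagonist, was close to absent except at 7 days. It had 2, 1, 0, 2 and 3 counts in the untreated libraries, 0, 1, 1, 1 and 5 at 1.5 h, and 5, 2, 5, 7 and 3 in the knockdown. At 7 days it had 15, 12, 11, 21 and 13 counts, in each library more than in any other group. With the untreated libraries set to 3 counts each, DKK1 was at least 4.61-fold higher at 7 days. As it entered the test through these libraries, its p after the filter is not given, and in a fit with no filter on low counts the log2 difference was 3.04 (edgeR adjusted p = 1.57e-05). The fit with the lane as a factor gave a log2 difference of -0.51 with an SE of 1.19 (edgeR adjusted p = 0.743). In the knockdown DKK1 was higher than in untreated cells by 1.43 (edgeR adjusted p = 0.0741) and was not called, without untreated replicate 5 it was higher by 1.86 (edgeR adjusted p = 0.0283), and a fit that included the lane gave -2.16 (edgeR adjusted p = 0.334). Within lanes DKK1 was higher at 7 days than at 1.5 h by 2.21 (lane 4) and than in the knockdown by 1.65 (lane 5) on the log2 scale. Its level at 7 days was 0.451 ± 0.119 CPM (SD, n = 5), and per kilobase it was 0.204 CPM, below the 0.736 CPM of BGLAP.

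Between the irradiated groups, beside DKK1, 4 tested members were called (29.3% of all genes, 16.8% higher and 12.6% lower), SPP1, ALPL and TNFRSF11B higher and SPARC lower at 7 days than at 1.5 h. These 4 were called in the same directions at 7 days against the knockdown (25.7% of all genes, 15.8% higher and 9.89% lower). The shares of all genes include those that, like DKK1, passed the filter only through the 7 days libraries. The groups did not overlap for 6 and 5 members, DKK1 among them, beside 61.8% and 60.7% of all genes tested. In the knockdown against 1.5 h 2 members were called, ALPL lower and DKK1 higher, where 14.1% of all genes were called (6.54% higher and 7.6% lower), and the groups did not overlap for RUNX2 and ALPL, beside 43.6% of all genes. The call of DKK1 (log2 fold change 1.58, edgeR adjusted p = 0.0472, on 0 to 7 counts in a library) held in 7 of 17 alternatives, with differences of 0.57 to 2.56 and edgeR adjusted p up to 0.788. The order of groups was 7 days, untreated, 1.5 h and knockdown for ALPL, with untreated and 1.5 h not called apart. For SPP1 it was 7 days ahead of the other 3, which were not called apart, and for SPARC the 7 days group was last behind 3 that were not called apart. For TNFRSF11B the 7 days and untreated groups formed an upper pair and the knockdown and 1.5 h groups a lower pair, neither called apart within the pair.

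Over the 20 libraries, the genes whose log2 CPM most resembled a member's were LPXN, RGS5 and SUGCT for SPP1 (Pearson's r = 0.99, 0.99 and 0.99) and STAC, COL3A1 and LSP1 for SPARC (0.98, 0.98 and 0.98). ALPL was nearest to OAF and GLTP (0.97 and 0.97), RUNX2 to ATXN2, RASGRF1 and EPS15L1 (0.95, 0.95 and 0.92), TNFRSF11B to SOX4, LIMK1 and TYW1 (0.92, 0.91 and 0.89) and DKK1 to NOV, OAS1 and GPNMB (0.93, 0.91 and 0.91). BGLAP reached no more than 0.74 (ITGB1BP1). An r over 0.9 was reached by 696 genes for SPP1, 432 for SPARC, 103 for ALPL, 17 for RUNX2 and 14 for DKK1. It was reached by 2 genes for TNFRSF11B and 0 for BGLAP. Among the members SPP1 and SPARC had the strongest relation, with r = -0.97. RUNX2 and ALPL had r = 0.13, with untreated replicate 5 apart from its group for both genes. These values describe 4 groups of 5 libraries that share their group means, and r between log levels of low genes is limited by counting.

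A further 9 lists, with 117 genes of bone biology, place the members among their pathways. At 1.5 h post-IR few of these genes were called, beside 3.66% of all genes tested. Of 12 osteoblast transcription factors tested 1 rose, the AP-1 subunit FOSB (log2 fold change 1.97), and 2 did without untreated replicate 5. In the RANKL-OPG axis CSF1, the growth factor of osteoclast precursors, rose by 0.83, 1 of 4 tested. In the Wnt axis 2 of 20 fell, the ubiquitin ligase RNF43 (-0.90) and the feedback inhibitor AXIN2 (-0.51, and -0.43 and not called without untreated replicate 5). Of 9 mineralization genes 1 fell, the phosphatase PHOSPHO1 (-0.56, groups overlapping, and -0.40 and not called without untreated replicate 5). No bone matrix protein of 14, collagen-processing gene of 13, osteocyte gene of 2, receptor of 12 or integrin of 7 was called by edgeR's test, where 6, 7, 1, 2 and 1 had an unadjusted p under 0.05. The median log2 fold changes of these 9 lists, between -0.07 (collagen processing) and 0.13 (RANKL-OPG axis), lay beside -0.03 over all genes tested.

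At 7 days post-IR some list genes, like DKK1, passed the filter on low counts only through the 7 days libraries, and they are left out of the counts and medians that follow. Without such genes 29.9% of the 14650 other genes were called, with a median log2 fold change of 0.00. Of 13 matrix genes 5 fell and 1 rose (median -0.43). SMOC1, of the SPARC family, fell by 1.74 (from 103 ± 3.29 to 30.8 ± 5.16 CPM), and COL5A2, a chain of the fibril collagen type V, fell by 1.54. FN1 (fibronectin) was the gene of the list that rose, by 0.80. Of 13 genes that process collagen 3 rose and 3 fell (median -0.00), and the lysyl oxidases LOXL1 (-2.26), LOXL4 (-1.19) and LOXL3 (-1.07) were those that fell. Without untreated replicate 5 LOX, of the same family, was called higher (0.57).

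Among regulators at 7 days, 2 of 12 osteoblast transcription factors rose and 3 fell (median -0.24), with FOSB at 2.09, RUNX3 at -1.02 and MSX2 at 0.55, and without untreated replicate 5 the AP-1 subunit FOSL1 was called too (0.89). In the Wnt axis 2 of 20 rose and 6 fell (median -0.23), and 1 rose and 7 fell without untreated replicate 5. The stem cell receptor LGR5 fell by 2.38 and RNF43 by 1.90, and DKK2, a relative of DKK1, rose by 2.23 from 0.642 ± 0.130 to 2.94 ± 0.476 CPM. In the RANKL-OPG axis 1 of 3 rose (median -0.19), CSF1 by 1.27. TNFSF10 (TRAIL, another ligand of osteoprotegerin) passed the filter only through 7 days and had 1.10 ± 0.364 CPM there against 0.146 ± 0.0677 CPM in untreated cells (SD, n = 5). TNFSF11, the gene of RANKL itself, had at most 6 counts in a library and was not tested.

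The matrix receptors that bind osteopontin did not move together at 7 days. Of 6 counted, 2 rose and 1 fell (median 0.06). CD44 rose by 1.60 from 253 ± 49.3 to 766 ± 13.4 CPM and ITGA4 by 0.51 (0.49 and not called without untreated replicate 5), while ITGB3, the β3 chain of the vitronectin receptor, fell by 1.87. Of 7 mineralization genes 0 rose and 2 fell (median -0.08), with the pyrophosphate-forming ENPP1 at -0.58. NT5E, the ectonucleotidase CD73, passed only through 7 days, with 0.693 ± 0.0727 CPM there and 0.155 ± 0.0593 CPM in untreated cells (SD, n = 5). Of the osteocyte genes PHEX, a protease of phosphate balance, rose by 2.05, 1 of 2 tested (median 0.84), and SOST, DMP1, MEPE, DSPP and FGF23 were too low to test. Among receptors of bone 1 of 11 rose and 1 fell (median -0.13), with the vitamin D target CYP24A1 at 1.75 and BMPR1B at -1.08. The estrogen receptor ESR1, which passed only through 7 days, had 0.590 ± 0.234 CPM there and 0.0822 ± 0.0884 CPM in untreated cells (SD, n = 5).

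**Figure D4:**
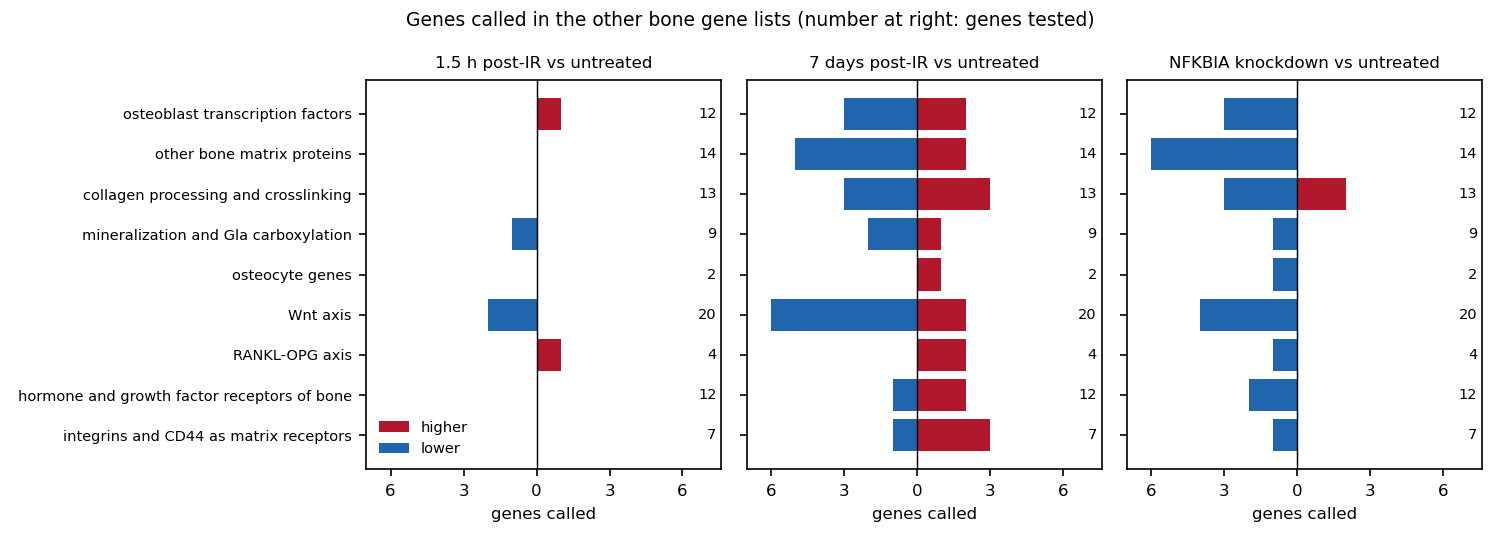
Number of genes called higher (red, to the right) and lower (blue, to the left) in 9 lists of bone genes, for each comparison with the untreated libraries, with the number of genes tested at the right edge of each panel. Matrix proteins were called lower 5 times at 7 days and 6 times in the knockdown, and 0 times at 1.5 h. The bars of genes higher at 7 days include SPARCL1, NT5E, TNFSF10, ESR1 and ITGA9, which passed the filter only through that group.

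In the NFKBIA knockdown 12.7% of all genes tested were called, 7.53% lower and 5.18% higher, and in 4 of the 9 lists a single gene was called. Of 14 matrix genes 6 fell (median -0.59 against -0.01 over all genes): the log2 fold change was -2.20 for THBS1 (thrombospondin), -1.68 for COL1A1, the main collagen of bone (1974 ± 247 to 617 ± 35.8 CPM), and -1.24 for FN1. Of 13 collagen-processing genes 2 rose and 3 fell (median 0.10), where LOXL4 rose by 1.16 and LOXL1 fell by 0.76 and LOX by 0.65. Of 12 transcription factors 3 fell (median -0.30), RUNX3 by 1.10 and DLX3 by 1.01 in groups that did not overlap, and RUNX1 by 0.67 in groups that did (-0.35 and not called without untreated replicate 5). In the Wnt axis 4 of 20 fell (median -0.15, and 3 fell without untreated replicate 5), with the ligand WNT5B at -1.35 and LGR5 at -0.97. GGCX, the enzyme that carboxylates the Gla proteins BGLAP and MGP, fell by 0.98, the 1 of 9 mineralization genes called (median -0.06). IL34 fell by 2.24, 1 of 4 in the RANKL-OPG axis (median -0.57), PDPN by 0.57, 1 of 2 osteocyte genes (median -0.05), and FGFR2 by 0.79 and VDR by 0.67, 2 of 12 receptors (median -0.17). Of the integrins ITGA9 was the 1 of 7 called (-1.60, at most 7 counts in an untreated library, median of the list -0.07), and it was not called without untreated replicate 5 (-1.29). Without that library 1 matrix gene was called higher and the collagen-processing genes called higher became 1.

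Markers of other cell types were read in the same libraries, since in bulk RNA fewer cells of a type and less RNA per cell cannot be told apart. The 7 mesenchymal markers were all tested and summed to 2500 to 3818 CPM in untreated cells and 3180 to 3297 CPM at 7 days. Without replicate 5 the untreated sums reached 3142 CPM, below all 7 days libraries. VIM, with 2403 CPM in untreated cells the largest part of the sum, was not called at 7 days (log2 fold change -0.13). CD44 was called higher (1.60), and PDGFRB (-1.58) and S100A4 (-1.91) were called lower. Of 8 markers of osteoclasts and macrophages, which make SPP1 too, 7 were tested, and the sum of the list was 26.9 to 31.9 CPM at 7 days against 5.20 to 9.89 CPM in untreated cells (up to 6.98 CPM without replicate 5), 6.26 to 6.80 CPM at 1.5 h and 6.49 to 8.61 CPM in the knockdown. Most of the sum at 7 days was the lysosomal protein CD68, with 23.2 ± 1.67 CPM against 2.69 ± 2.03 CPM in untreated cells (SD, n = 5). At 7 days 2 of the 5 that did not owe their test to these libraries rose, CD68 by 3.21 and OSCAR by 0.66, while CTSK (-0.11), DCSTAMP (0.45) and CSF1R (0.37) were not called. The phosphatase ACP5 (1.07 ± 0.255 CPM) and the scavenger receptor CD163 (0.641 ± 0.196 CPM) passed the filter only there. The sum of the 5 leukocyte markers was 15.0 to 19.1 CPM at 7 days against 5.73 to 9.80 CPM in untreated cells (up to 6.61 CPM without replicate 5), with LCP1 at 15.7 ± 2.09 CPM, 1 of 2 tested that rose (2 without untreated replicate 5). The calcitonin receptor CALCR, which defines osteoclasts, had at most 10 counts in any library. The part of these markers in the changes of SPP1 was not tested.

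Chondrocyte markers fell at 7 days, 4 of 5 tested, with the cartilage proteoglycan ACAN at -3.28 and MATN3 at -0.94, and their sum was 180 to 198 CPM against 200.1 to 441 CPM in untreated cells, or up to 237 CPM without replicate 5, when 3 of the 5 fell. In the knockdown 2 of the 5 fell (1 without untreated replicate 5), with ACAN at -1.38, and the sum was 193 to 209 CPM, beside the lower ALPL. At 1.5 h 0 of the 5 were called by edgeR's test and 1 had an unadjusted p under 0.05. Their part in the changes of the members was not tested.

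Other markers were called in both directions. At 7 days, leaving out those that passed the filter only there, 1 of 6 mesenchymal markers rose and 2 fell, and 0 of 6 epithelial markers rose and 5 fell, with KRT14 at -2.70. In the knockdown 1 of the mesenchymal and 4 of the epithelial markers fell, with KRT14 at -3.27. Of 3 adipocyte markers 1 fell at 7 days, and of 4 tested 1 rose and 1 fell in the knockdown. Without untreated replicate 5, no mesenchymal marker was called in the knockdown, no adipocyte marker rose there and 1 endothelial marker fell. Of 2 skeletal muscle markers tested 1 rose and 1 fell at 7 days and 0 were called in the knockdown, with 0 at an unadjusted p under 0.05. Of 2 endothelial markers tested 0 were called at 7 days, with 1 at an unadjusted p under 0.05, and 0 in the knockdown, with 0 at that limit. In the knockdown 2 of 7 osteoclast and macrophage markers rose and 1 fell, and 1 of 2 leukocyte markers, PTPRC, fell by 1.52. At 1.5 h none of the tested genes of the 8 marker lists was called by edgeR's test (1 skeletal muscle gene was without untreated replicate 5), and between 0 and 3 genes of a list had an unadjusted p under 0.05.

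**Figure D5:**
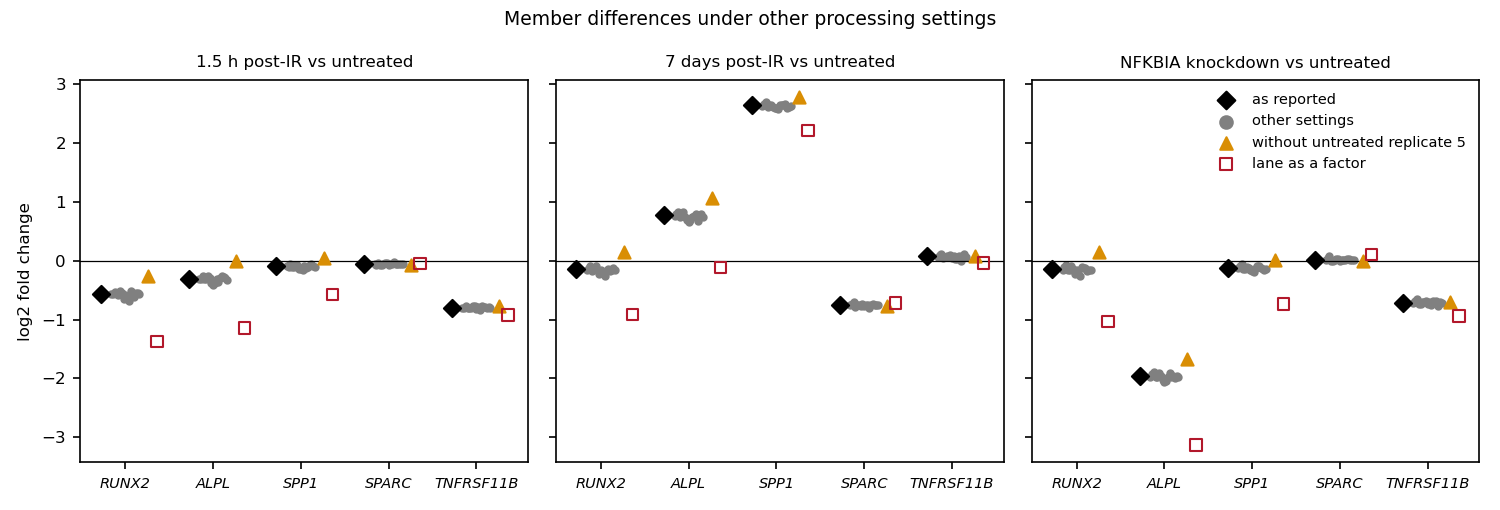
Log2 fold changes of 5 members against the untreated libraries, as reported (black), without untreated replicate 5 (orange), with the lane as a factor (open red squares) and under the other alternative settings (grey). SPP1 at 7 days and ALPL in the knockdown kept their direction, while ALPL at 7 days reached -0.11 with the lane as a factor.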

How the data were processed

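RNA of U2-OS cells was sequenced in 20 libraries, 5 per group, as stranded mRNA libraries with single reads. The submitters' processing notes name bcl2fastq, Trimmomatic, STAR 2.4.2a and hg19, and the counter, its annotation and its strand setting are not given in the sources used here. The deposited table holds raw read counts per gene, which the authors did not normalize, with a gene width. No 2 libraries were identical.

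Counts were analysed as deposited with edgeR 4.0.16 (R 4.3.3), with filterByExpr (minimum count 10), TMM factors and the quasi-likelihood test over all 4 groups, without covariates. Adjusted p values are Benjamini-Hochberg adjusted over the 14992 genes tested. Genes were called at an adjusted p under 0.05 and a log2 fold change above 0.5 in size. Levels are CPM, correlations used log2 CPM with a prior count of 2, and levels between genes are per kilobase of width. An exact permutation test over libraries was used for single members. The scripts were tested on simulated data.

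The 10 members and the 9 lists of bone genes and 8 lists of cell type markers were chosen with earlier results of these data known. From each bone list, up to 3 called genes with the largest change and groups that did not overlap were named. FN1, LOX, FOSL1, TNFSF10, NT5E and ESR1 at 7 days, PHOSPHO1 at 1.5 h, RUNX1 in the knockdown and the named cell type markers were chosen after their values were seen. Alternatives were RLE, upper-quartile and no scaling factors, other filters, DESeq2 1.42.0, the replicate block, the lane as a factor, fits within a lane or of 2 groups, and leaving out each library. List results without untreated replicate 5, and without genes that pass the filter only through the group compared (under 5 libraries of other groups above the filter's limit), were added after seeing the data. GENCODE 29 was used for gene order and overlaps, and RefSeq (GRCh38.p14) for promoters, apart from the hg19 counts. Some genes that the naming rules would give are not reported here.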

Additional observations from a re-analysis of the deposited data

Results flagged for a closer look

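In 5 of 28 sets of 5 libraries (7 tested members in 4 groups), 1 library lay apart from the other 4, with a gap of more than 0.71 of the set's range. Chance gives this in about 1 of 20 sets. Untreated replicate 5 stood apart for RUNX2 (206 CPM, a gap of 0.78 of the range) and for ALPL (48.4 CPM, 0.732). ALPL was also apart in 7 days replicate 3 (55.1 CPM, 0.756), SPARC in 1.5 h replicate 1 (1938 CPM, 0.846) and DKK1 in 1.5 h replicate 5 (0.142 CPM, from 5 counts, 0.793).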

How the results depend on the processing

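Among the log2 fold changes of the members in 6 comparisons, 782 values under the alternatives kept their call or stayed uncalled, the latter in part with another sign, 11 gained a call, 15 lost it and 2 that were called turned direction. Both of these came with the lane as a factor at 7 days against untreated, ALPL at -0.11 and DKK1 at -0.51. Uncalled values that turned sign include RUNX2 at 7 days (0.15) and in the knockdown (0.15) without untreated replicate 5, and DKK1 in the knockdown with the lane as a factor (-2.16). That fit called 3820 genes and 4 members at 1.5 h against untreated, 4088 genes and 4 members in the knockdown against untreated, and 1186 genes and 1 member in the knockdown against 1.5 h. Within lane 3, with a lone untreated library assumed to vary like the other groups, 3685 genes and 4 members were called at 1.5 h. With only the 2 groups compared, 1 member was called at 1.5 h against untreated and 1 in the knockdown against 1.5 h, and in the latter 1 was called with no filter and 1 with at least 10 counts in every library. Leaving out each library gave 1 to 2 members for 1.5 h against untreated (1 without untreated replicate 5 or 1.5 h replicate 1 or 4) and 1 to 2 for the knockdown against 1.5 h, where DKK1 was the call lost. The cause was not tested. With library size alone the share of calls that were higher in the knockdown was 51.2%, against 40.8% with TMM, and no scaling moved the median of all genes by 0.1.

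With the replicate block 496, 4628 and 1849 genes were called at 1.5 h, at 7 days and in the knockdown against untreated, and 2, 4 and 2 members, where the 4 include DKK1, which the count of 3 at 7 days leaves out. Equal replicate numbers shared no pairing, since the correlation of their deviations was between -0.254 and 0.123.

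DKK1 and BGLAP are limited by depth, and SP7, IBSP and MGP did not pass the filter on low counts. In a fit with no filter their lowest edgeR adjusted p was 0.170, for SP7 at 7 days against untreated. No lane held untreated and 7 days libraries, or untreated and knockdown libraries, so for these the lane and the group cannot be told apart except through untreated replicate 5.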
